A study of Mus musculus with 20 samples.

Results

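The genes described here are 45 enzymes, carriers and kinases of glycolysis, the pentose phosphate pathway and the tricarboxylic acid (TCA) cycle. They were measured in mouse embryonic stem cells (ESCs) that had been sorted by their levels of Nanog and Sox2, transcription factors of the pluripotent state. They were taken by exact gene symbol from a fixed list, and all 45 were found among the 29692 genes of the RNA-seq table. Aldoa alone had a pair of entries, of which the abundant one was used. The groups were state 3 (Nanog low, Sox2 low), state 2 (Nanog low, Sox2 high), state 1 (Nanog high, Sox2 high) and the total population. All of these cells had been grown in fetal bovine serum with leukemia inhibitory factor (LIF), and the labels name no other treatment. The cell line, its genotype, and how Nanog and Sox2 were read during sorting are not given in the sources used here. The study set out to examine gene expression in the states, with 3 rRNA-depleted RNA-seq libraries in each group and 12 in all.

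The values are the authors' normalized signal, 1 per gene and group with the 3 libraries merged, so no spread between libraries can be given for any value. A gene was called different between a pair of groups where the authors' EBSeq model, an empirical Bayes model of read counts over libraries, gave a posterior probability of at least 0.95 that they differed. The direction was taken from the values. Differences are log2 ratios with 1 added to each value, the group named first over the group named second. Fewer cells of a type and less RNA per cell cannot be told apart in such bulk samples. The columns summed to between 16916200 and 17726000, and the smallest steps in each column put the depth of a group at about 48000000 to 60400000 reads. Only changes between groups are compared, since no scaling by transcript length is stated and levels of different genes cannot be ranked.

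Glycolysis splits glucose into pyruvate in the cytosol. The pyruvate is either reduced to lactate or carried into mitochondria, where the pyruvate dehydrogenase complex turns it into acetyl-CoA for the TCA cycle. Pyruvate dehydrogenase kinases switch that complex off by phosphorylation. The pentose phosphate pathway branches off near the start of glycolysis and makes NADPH and ribose phosphate. Pluripotent stem cells are known for high glycolytic flux, and many glycolytic genes are targets of the hypoxia-inducible factors (HIF) and of Myc.

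In state 3, 3 of the 4 pyruvate dehydrogenase kinases, the phosphofructokinase Pfkp and 5 TCA-list genes were lower than in state 1. Only 1 of these TCA-list falls exceeded 1.5-fold. Of the 17 genes from glucose uptake to pyruvate, 4 were higher (23.5%) and 5, Pfkp among them, were lower (29.4%). Of the 45 genes, 5 rose in state 3 relative to state 1, 17 fell and 23 were not called. Those that rose were Slc2a1, Pfkl, Tpi1, Eno3 and Pdhb. Those that fell were Hk1, Pfkm, Pfkp, Aldoc, Pgam1, Ldhb, Pdha1, Pdk1, Pdk2, Pdk4, Taldo1, Idh2, Idh3b, Idh3g, Ogdh, Mdh1 and Pcx. Across all genes 11.4% were called higher and 9.01% lower in this comparison, and among the 11608 genes with a mean of at least 50 over the states the shares were 22.0% and 20.3%. The share of enzyme genes called lower, 37.8%, lay above both of those background shares, and the share called higher, 11.1%, lay near the first and below the second. The abundant genes are the closer setting, since 43 of the 45 have a mean of at least 50. The median log2 ratio of state 3 against state 1 was -0.11 over the 45 genes, 0 over all genes and -0.04 over the abundant ones. With the columns rescaled to the same total it was -0.0705 over the 45 genes and -0.00869 over the abundant ones. Of the 22 called genes, 10 differed by more than 1.5-fold.

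**Figure D1:**
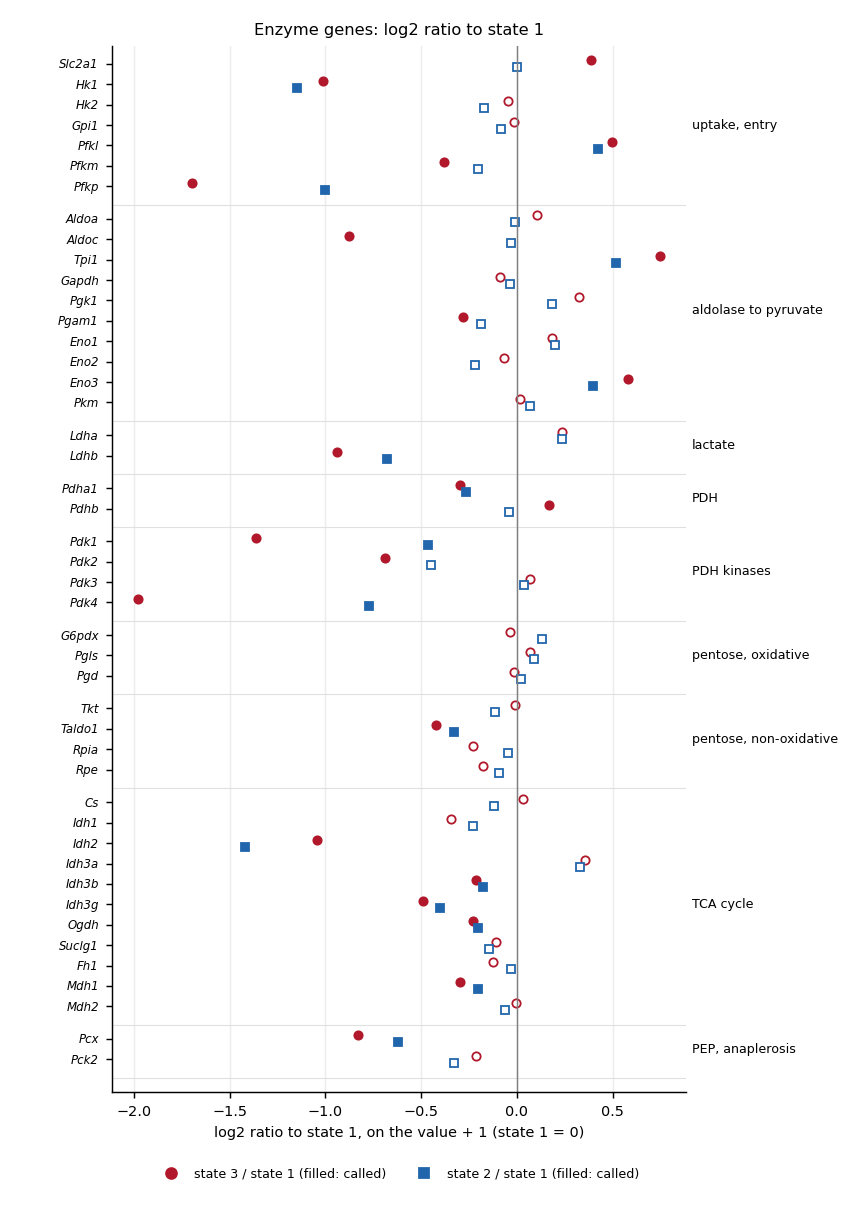
Log2 ratio (1 added to each value) of state 3 over state 1 and of state 2 over state 1 for each of the 45 genes, grouped by step in the pathways. Filled symbols were called at a posterior of at least 0.95 and open symbols were not. The kinase Pdk4, the phosphofructokinase Pfkp and the kinase Pdk1 lie farthest to the left, at -1.98, -1.70 and -1.36 in state 3 against state 1, and Tpi1 lies farthest to the right at 0.75.

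Markers of the sort and of other cells moved with the states, and their part in the enzyme results was not tested. Nanog had 440.0 in state 3, 743 in state 2, 4145 in state 1 and 2783 in the total population. Sox2 had 1306 in state 3, 3167 in state 2, 4155 in state 1 and 3955 in the total population. Nanog was lower in both Nanog-low states than in state 1, and Sox2 was lowest in state 3, the state labelled Sox2 low. Of 6 ESC markers, Nanog and Sox2 among them, 4 fell in state 3 against state 1, and the summed signal of all 6 was 19508, 24818, 42616 and 35995 in state 3, state 2, state 1 and the total population. Of 8 trophectoderm markers 6 rose and 1 fell, and their sums in that order were 9884, 2756, 1314 and 2164, with Elf5 at 0.360, 0, 0.640 and 0.350. Of 8 primitive endoderm markers 5 rose, with sums of 907, 263, 139 and 196. Of the 7 measured of 8 feeder fibroblast markers 3 rose, with sums of 1153, 189, 72.1 and 187. Dcn stood at 12.4, 2.09, 0 and 2.05, and Lum at 1.46, 0, 0.320 and 0.350. By these sums state 3 was highest for all 3 lists of other cell types and lowest for the ESC list. In state 3 most of the trophectoderm sum came from Krt8 (5389) and Krt18 (3437), and most of the fibroblast sum from Col1a1 (827). Tfap2c, the trophectoderm marker that fell, had 270 in state 3 and 951 in state 1. The 13 mitochondrially encoded genes, which are transcribed in the organelle that houses the cycle, summed to 187632, 186591, 167240 and 196703, lowest in state 1. The table names 7 processed copies of the 45 genes, with a highest value of 176, and how reads were divided between a gene and its copies was not tested.

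The stretches of 250 bases before the transcription start are shown for the 3 genes with the largest fall and the 3 with the largest rise in state 3 against state 1. They are printed so that the upstream sequence of genes that moved in opposite directions can be read side by side. The sequences are RefSeq's for GRCm38.p6, 5′ to 3′ on the gene's strand, and capitals mark ACGTG or GCGTG on either strand, the core letters of the HIF response element.
Pdk4, chr6:5496279-5496528, minus strand: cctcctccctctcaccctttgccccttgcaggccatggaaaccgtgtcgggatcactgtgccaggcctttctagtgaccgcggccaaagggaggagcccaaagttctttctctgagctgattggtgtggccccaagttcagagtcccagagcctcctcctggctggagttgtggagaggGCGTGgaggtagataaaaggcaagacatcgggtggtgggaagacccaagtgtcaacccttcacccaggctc
Pfkp, chr13:6648772-6649021, minus strand: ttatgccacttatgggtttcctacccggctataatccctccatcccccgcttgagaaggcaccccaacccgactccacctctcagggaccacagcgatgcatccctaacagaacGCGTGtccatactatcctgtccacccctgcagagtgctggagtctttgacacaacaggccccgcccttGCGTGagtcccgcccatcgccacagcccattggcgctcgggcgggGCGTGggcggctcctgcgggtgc
Pdk1, chr2:71872974-71873223, plus strand: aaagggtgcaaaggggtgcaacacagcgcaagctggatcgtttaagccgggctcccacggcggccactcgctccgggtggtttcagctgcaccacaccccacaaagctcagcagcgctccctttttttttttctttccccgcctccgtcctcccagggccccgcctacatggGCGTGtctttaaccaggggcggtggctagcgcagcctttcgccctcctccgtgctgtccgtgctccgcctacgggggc
Tpi1, chr6:124814159-124814408, minus strand: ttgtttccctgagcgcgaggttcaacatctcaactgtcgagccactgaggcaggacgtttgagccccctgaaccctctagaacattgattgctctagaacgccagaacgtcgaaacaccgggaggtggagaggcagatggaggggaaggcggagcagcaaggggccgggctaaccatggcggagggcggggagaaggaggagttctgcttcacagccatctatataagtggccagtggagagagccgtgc
Eno3, chr11:70656926-70657175, plus strand: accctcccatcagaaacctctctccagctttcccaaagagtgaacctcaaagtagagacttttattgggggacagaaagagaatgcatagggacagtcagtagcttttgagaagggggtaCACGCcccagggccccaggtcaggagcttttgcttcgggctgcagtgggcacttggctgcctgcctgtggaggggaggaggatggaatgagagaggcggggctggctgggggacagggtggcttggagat
Pfkl, chr10:78009808-78010057, minus strand: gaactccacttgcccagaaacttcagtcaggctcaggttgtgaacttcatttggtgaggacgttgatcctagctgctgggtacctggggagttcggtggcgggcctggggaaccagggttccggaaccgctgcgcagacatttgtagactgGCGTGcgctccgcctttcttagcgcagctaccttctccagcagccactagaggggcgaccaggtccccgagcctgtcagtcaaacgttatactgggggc

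The capitals occur once upstream of Pdk4, Pdk1, Eno3 and Pfkl, 3 times upstream of Pfkp and not at all upstream of Tpi1. The Pfkp and Eno3 stretches lie within the annotated span of the gene and the Pdk1 stretch reaches into it with its last few bases. Pdk1 has 2 annotated starts, of which the one farthest upstream was used. RefSeq windows were matched for 44 of the 45 genes, 65 windows in all. Only the 250 bases before the start were searched in each window, and GC content was taken over the same bases. Either core was present in 76.9% of the windows of the 45 genes, in 57.6% of 10902 windows of abundant coding genes and in 38.6% of all 32851 windows. Median GC content was 59.2% in the windows of the enzyme genes, 60.4% in those of abundant coding genes and 52.4% in all windows. By direction of change, 24 of 30 windows of genes that fell held the letters, against 4 of 5 windows of genes that rose and 22 of 30 of genes not called. CACGTG, the E-box bound by Myc and related factors, contains ACGTG and so overlaps with it. It was found in 7 of the 65 windows (10.8%), against 8.64% of the abundant coding windows and 6.02% of all windows. Those windows belong to Ldha, Ogdh, Pcx, Pdk2 and Pfkm. The E-box was in 6 of 30 windows of genes that fell, from 4 of 17 genes. It was in 0 of 5 windows of genes that rose and 1 of 30 of genes not called. This difference was not tested. The motif AAGGTCA of the oestrogen-related receptors was in 1 window, that of Eno1, or 1.54% against 2.60% and 4.08%. A match is a description of letters in a window, not evidence of binding.

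Of the 7 genes of glucose uptake and the first steps of glycolysis, 2 rose and 3 fell in state 3 against state 1 (median log2 ratio -0.04). Slc2a1, the GLUT1 glucose transporter, had values of 8119 in state 3, 6211 in state 2, 6205 in state 1 and 6323 in the total population. State 3 alone stood high, and the gene was called higher against state 1 (log2 ratio 0.39) and against state 2 (0.39), while state 2 against state 1 stood at 0.00. Hexokinase traps glucose in the cell as glucose 6-phosphate. Hk1, the broadly expressed hexokinase, had 378 in state 3, 343 in state 2, 763 in state 1 and 603 in the total population. The state 3 value was 0.496 times that of state 1 and the state 2 value was lower still, with log2 ratios of -1.01 for state 3 and -1.15 for state 2 against state 1, both called. Hk2, the inducible hexokinase, had 7338 in state 3, 6711 in state 2, 7567 in state 1 and 7611 in the total population, and no pair of states was called. The ratio of Hk2 to Hk1 was accordingly 0.97 higher on the log2 scale in state 3 and 0.98 higher in state 2, each against state 1. Gpi1, which converts glucose 6-phosphate to fructose 6-phosphate, lay between 4851 and 5132 in all 4 groups and was not called.

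Phosphofructokinase, the main control point of glycolysis, showed the widest contrast among the isozyme ratios computed. Pfkl, the liver-type subunit, had 2644 in state 3, 2518 in state 2, 1875 in state 1 and 1988 in the total population. Both Nanog-low states were above state 1, and both calls held, at log2 ratios of 0.50 for state 3 and 0.43 for state 2. Pfkp, the platelet-type subunit, had 609.5 in state 3, 987 in state 2, 1976 in state 1 and 1575 in the total population. Its values followed the order of the states, -1.70 for state 3 and -1.00 for state 2 against state 1, both called, while the step between state 3 and state 2 (-0.69, posterior 0.135) was not. Pfkm, the muscle-type subunit, had 562 in state 3, 636 in state 2, 733 in state 1 and 686 in the total population and was called lower only in state 3 against state 1 (-0.38). The ratio of Pfkl to Pfkp was 4.56-fold higher in state 3 than in state 1, and that of Pfkl to Pfkm was 1.84-fold higher.

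**Figure D2:**
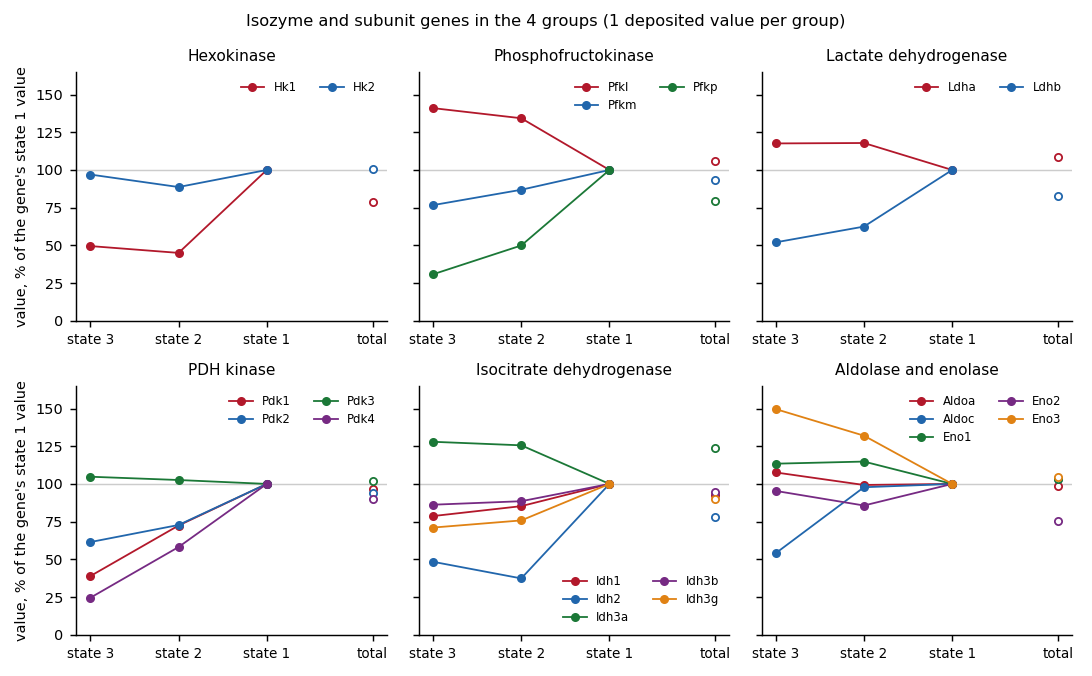
Value of each isozyme or subunit gene as a percent of its own state 1 value (vertical axis, from 0) in state 3, state 2, state 1 and the total population (open symbols), in 6 enzyme families. Each point is 1 deposited value with no error available. Pfkl lies above and Pfkp below the state 1 line in both Nanog-low states, and Pdk3 stays near the line while Pdk1, Pdk2 and Pdk4 lie below it.

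Between aldolase and pyruvate, 2 of 10 genes rose, 2 fell and 6 were not called in state 3 against state 1 (median log2 ratio 0.06). Tpi1, which interconverts the pair of triose phosphates, had 3878 in state 3, 3307 in state 2, 2307 in state 1 and 2671 in the total population. Both Nanog-low states were called higher than state 1, at log2 ratios of 0.75 for state 3 and 0.52 for state 2. Eno3, the muscle-type enolase, had 487 in state 3, 429.8 in state 2, 326 in state 1 and 340.4 in the total population, and was likewise called in both, at 0.58 and 0.40. In state 3 against state 1 these were the 2 largest rises among the 45 genes, and the values of both genes ran in the order of the states. Pgam1, a phosphoglycerate mutase, moved the other way with 10800.1 in state 3, 11504 in state 2, 13118 in state 1 and 12534 in the total population. It was called lower in state 3 against state 1 (-0.28, posterior 0.968) and fell just short in state 2 (-0.19, posterior 0.939). Aldoc, the brain-type aldolase, had 49.6 in state 3, 89.8 in state 2, 91.8 in state 1 and 94.9 in the total population. State 3 alone was low, with calls against state 1 (-0.87) and against state 2 (-0.84), and the ubiquitous aldolase Aldoa was not called, with 12557 in state 3, 11586 in state 2, 11669 in state 1 and 11482 in the total population. The second entry named Aldoa had between 5.52 and 7.32 and was not called either.

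Gapdh and Pkm showed no called difference in any comparison. Gapdh, the glyceraldehyde 3-phosphate dehydrogenase often used as a reference gene, had 55414 in state 3, 57435 in state 2, 58911 in state 1 and 56555 in the total population, and the posterior that all 4 groups were equal was 0.999. Pkm, pyruvate kinase, had 36119 in state 3, 37331 in state 2, 35658 in state 1 and 35545 in the total population, with a posterior of 0.999 for equality. For both genes the model placed nearly all weight on no difference. Such a score does not by itself show equal values, since Pck2 had 0.969 at a log2 ratio of -0.33 in state 2 against state 1. Pgk1, phosphoglycerate kinase, had 7023 in state 3, 6351 in state 2, 5599 in state 1 and 6070.4 in the total population, and the posterior for a difference between state 3 and state 1 was 0.871, short of the limit at a log2 ratio of 0.33. Eno1, the ubiquitous enolase, had 30396 in state 3, 30771 in state 2, 26799 in state 1 and 27687 in the total population, with a posterior of 0.537 at 0.18. Neither can be read as equal or as different from these values. Eno2, the neuronal enolase, was low throughout, between 36.9 and 49.0, and not called.

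At the branch between lactate and the mitochondrion, lactate dehydrogenase B fell and A did not pass the limit. Ldhb, whose subunit favours lactate oxidation, had 516 in state 3, 619.8 in state 2, 992 in state 1 and 819 in the total population. Both Nanog-low states were called lower than state 1, at -0.94 for state 3 and -0.68 for state 2. Ldha, whose subunit favours lactate formation, had 14109 in state 3, 14143 in state 2, 11997 in state 1 and 13043 in the total population, with a posterior of 0.599 for a difference between state 3 and state 1. The ratio of Ldha to Ldhb was 2.26-fold higher in state 3 than in state 1.

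Of the 4 pyruvate dehydrogenase kinases 3 fell in state 3 against state 1 (median log2 ratio of the 4 -1.02), and Pdk4 gave the largest difference of all 45 genes. Pdk4 had 22.8 in state 3, 54.0 in state 2, 92.9 in state 1 and 83.8 in the total population, and its value in state 3 corresponds to about 63.3 reads over the merged libraries. The values fell in steps over the states, and all 3 comparisons were called, at log2 ratios of -1.98 in state 3 and -0.77 in state 2, each against state 1, and -1.21 between states 3 and 2. Pdk1, a HIF target in many cell types, had 1352 in state 3, 2516 in state 2, 3474 in state 1 and 3348 in the total population. It too was called in all 3, at -1.36, -0.47 and -0.90 in the same order, and no other gene of the 45 was called in every comparison of states. Pdk2 had 38.0 in state 3, 45.0 in state 2, 61.9 in state 1 and 58.2 in the total population, with a call in state 3 against state 1 (-0.69, posterior 0.970) and none in state 2 (-0.45, posterior 0.919). Pdk3, by contrast, lay between 440.4 and 461 and was not called, with a posterior of 0.967 for equality of all groups. The ratio of Pdk3 to Pdk4 was 4.13-fold higher, that to Pdk1 2.69-fold higher and that to Pdk2 1.69-fold higher in state 3 than in state 1.

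The subunits of the first component of pyruvate dehydrogenase differed in direction. Pdha1, the catalytic alpha subunit and the one that the kinases phosphorylate, had 2938 in state 3, 2997 in state 2, 3604 in state 1 and 3581 in the total population. It was lower in both Nanog-low states than in state 1, at -0.29 for state 3 and -0.27 for state 2. Pdhb, the beta subunit, had 2843 in state 3, 2459 in state 2, 2533 in state 1 and 2477 in the total population and was called higher in state 3 against state 1 (0.17, posterior 0.977) and against state 2 (0.21, posterior 0.977). Both differences were under 1.5-fold.

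The pentose phosphate pathway had 1 of 7 genes called in state 3 against state 1. None of the 3 oxidative enzymes was called in any comparison of states. G6pdx, the first and NADPH-forming enzyme, had 1150.3 in state 3, 1294 in state 2, 1180.2 in state 1 and 1166 in the total population. Pgd, the second dehydrogenase, stayed between 2441 and 2498, and Pgls, the lactonase between them, between 469.7 and 500.3. All 3 had a posterior of at least 0.9 that the 4 groups were equal. In the non-oxidative branch Taldo1, transaldolase, had 1735 in state 3, 1852 in state 2, 2324 in state 1 and 2066 in the total population. It was lower in both Nanog-low states, at -0.42 for state 3 and -0.33 for state 2 against state 1. Tkt, transketolase, had 9327 in state 3, 8664 in state 2, 9390.2 in state 1 and 9062 in the total population and was not called, and neither were the ribose 5-phosphate isomerase Rpia, between 95.2 and 112, and the epimerase Rpe, between 928 and 1048.

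In the TCA list, which also holds the cytosolic enzymes Idh1 and Mdh1, 5 of 11 genes fell in state 3 against state 1 and none rose (median log2 ratio -0.21), and the same count of 5 and none was found in state 2 against state 1, where Mdh1 loses its call with state 1 and the total population exchanged in the pattern order (posterior 0.906). Idh2, the NADP-linked isocitrate dehydrogenase of mitochondria, had the largest fall of these, with 534 in state 3, 413 in state 2, 1105 in state 1 and 862 in the total population. State 2 was the lowest, at a log2 ratio of -1.42 against state 1, with state 3 at -1.05, both called. The step between state 3 and state 2, 0.37, had a posterior of 0.850 and was not called. Idh3g, the regulatory gamma subunit of the NAD-linked enzyme, had 810.2 in state 3, 864 in state 2, 1140.0 in state 1 and 1024 in the total population, and Idh3b, its beta subunit, had 1179.7 in state 3, 1211 in state 2, 1368 in state 1 and 1296 in the total population. Both were called lower in state 3 (-0.49 and -0.21) and in state 2 (-0.40 and -0.18) against state 1. The catalytic alpha subunit Idh3a had 1578 in state 3, 1549 in state 2, 1234 in state 1 and 1529 in the total population and was not called at a log2 ratio of 0.36 (posterior 0.385). Its ratio to Idh3g was 1.80-fold higher in state 3 than in state 1. Idh1, the cytosolic NADP-linked enzyme, had 1005 in state 3, 1089 in state 2, 1277 in state 1 and 1186 in the total population, short of a call at -0.35 (posterior 0.520).

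Ogdh and Mdh1 were the other 2 genes of the list that fell. Ogdh, the first subunit of the 2-oxoglutarate dehydrogenase complex, had 2077 in state 3, 2115 in state 2, 2437 in state 1 and 2307 in the total population and was lower in both Nanog-low states, at -0.23 for state 3 and -0.20 for state 2. Mdh1, the cytosolic malate dehydrogenase, had 1394 in state 3, 1485 in state 2, 1711 in state 1 and 1579 in the total population, also lower in both, at -0.30 and -0.20. Each of these differences was below 1.5-fold. Mdh2, the mitochondrial form that works in the cycle itself, had 3415 in state 3, 3288 in state 2, 3426 in state 1 and 3305 in the total population and was not called. Cs, citrate synthase, lay between 3343 and 3710.2, Suclg1, the alpha subunit of succinyl-CoA ligase, between 1009 and 1116, and Fh1, fumarate hydratase, between 1405 and 1530.1. None of the 3 was called in any comparison. Pcx, pyruvate carboxylase, which refills the cycle with oxaloacetate, had 179 in state 3, 207 in state 2, 319.6 in state 1 and 238 in the total population. It fell in both Nanog-low states, at -0.83 for state 3 and -0.62 for state 2 against state 1. Both calls are lost when state 1 and the total population are exchanged in the pattern order, with posteriors of 0.843 and 0.515. Pck2, the mitochondrial phosphoenolpyruvate carboxykinase, had 648 in state 3, 599.9 in state 2, 752 in state 1 and 683 in the total population and was not called.

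State 2, labelled Nanog low and Sox2 high, was set against each of the other states, and Nanog and Sox2 themselves were called different in both comparisons. Against state 1, 3 of the 45 genes were higher in state 2, namely Pfkl, Tpi1 and Eno3, and 13 were lower, with a median log2 ratio of -0.12. Over the abundant genes that median was -0.02. With the columns rescaled to the same total the medians were -0.0487 over the 45 genes and 0.0432 over the abundant ones. The background here was 7.11% higher and 6.33% lower over all genes, and 14.4% and 14.5% over abundant genes, so the 28.9% of enzyme genes called lower again lay above it. Only 5 genes were called between state 3 and state 2, with Slc2a1 and Pdhb higher in state 3 and Aldoc, Pdk1 and Pdk4 lower. All genes gave 5.41% higher and 3.19% lower in that comparison, and abundant genes 11.0% and 7.34%, so the shares of 4.44% and 6.67% among the enzyme genes were not above those of abundant genes. The median log2 ratio was -0.03 over the 45 genes and -0.02 over the abundant ones. With the columns rescaled to the same total these were -0.0572 and -0.0521. These comparisons share groups with each other and their counts are not independent.

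The joint posterior of the 3 states placed state 2 with state 3, apart from state 1, as the most probable arrangement for 14 of the 22 genes called between state 3 and state 1. It placed all 3 states apart for 5 genes, and it joined state 2 to state 1 for 3 genes, Slc2a1, Pdhb and Aldoc. At a posterior of 0.95 these counts were 7, 2 and 2, and the pair with all states apart was Pdk1 and Pdk4. Among all 6070 genes called between state 3 and state 1 the most probable arrangements numbered 2748 with state 2 beside state 3, 1859 with all apart and 1463 with state 2 beside state 1, or 45.3%, 30.6% and 24.1%, against 63.6%, 22.7% and 13.6% of the 22 enzyme genes. On a scale of log2 values where state 1 is 0 and state 3 is 1, state 2 had a median position of 0.69 over the 22 genes, against 0.60 over the 6070 genes. Hk1 and Idh2 passed 1 on this scale, since they were lowest in state 2. No test of the difference between 22 genes and all genes was made.

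**Figure D3:**
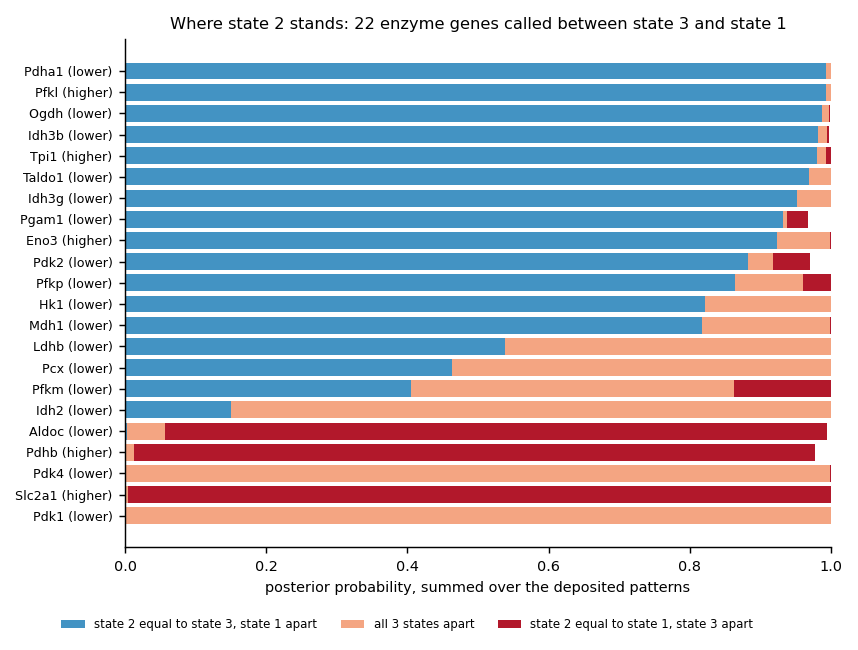
Posterior of each joint arrangement of the 3 states for the 22 genes called between state 3 and state 1, from 0 to 1 along each bar. Pfkl, Tpi1 and Pdha1 are among those in which state 2 goes with state 3 at a posterior of at least 0.95, Pdk1 and Pdk4 those in which all states are apart at that limit, and Slc2a1, Pdhb and Aldoc those in which state 2 most probably goes with state 1.

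The unsorted total population holds cells of every state. Its value lay within the range of the 3 states for 40 of the 45 genes (88.9%), against 75.1% of abundant genes, the exceptions being Hk2, Aldoa, Aldoc, Eno2 and Pkm. It was nearest to state 1 for 25 of the 45 genes (55.6%, against 55.4% of abundant genes) and for 17 of the 22 called ones. No enzyme gene was called higher or lower in state 1 against the total population, where all genes gave 0.707% higher and 1.27% lower. Pcx came nearest, at a posterior of 0.9496, just under the limit. At a limit of 0.90 the count higher in state 1 was 1. Of the 5 X-linked genes, Pdha1 and Idh3g fell in state 3 against state 1 and Pgk1, Pdk3 and G6pdx were not called.

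Other genes of the same pathways, their regulators and further HIF targets were taken from lists of 92 genes, of which 90 were measured. These genes moved in both directions. Their counts stand against the 22.0% higher and 20.3% lower among abundant genes in state 3 against state 1. Of 28 further glycolytic and lactate-transport genes, 6 rose (21.4%, near that background) and 1 fell (3.57%) in state 3 against state 1, with a median log2 ratio of 0.00. Pfkfb3, which makes the phosphofructokinase activator fructose 2,6-bisphosphate, had 708 in state 3, 317 in state 2, 195 in state 1 and 221 in the total population and rose by 1.86 on the log2 scale. Slc16a3, the MCT4 lactate exporter, had 1072 in state 3, 755 in state 2, 298 in state 1 and 416 in the total population and rose by 1.84. The only fall was in Tigar, a phosphatase that lowers fructose 2,6-bisphosphate, with 496 in state 3, 568 in state 2, 884 in state 1 and 761 in the total population and a log2 ratio of -0.83. Pfkfb3 and Tigar, which act on the same activator in opposite ways, thus changed in opposite directions. The relatives of Pfkfb3 were not called, with Pfkfb1 at 0.37, Pfkfb2 at 0.33 and Pfkfb4 at -0.18. The level of the activator was not measured. Fbp2, the muscle-type fructose bisphosphatase of gluconeogenesis, rose at low values, with 24.4 in state 3, 7.01 in state 2, 8.74 in state 1 and 4.88 in the total population.

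Among 8 further genes of pyruvate import and pyruvate dehydrogenase, 3 fell and none rose (median -0.03). Mpc1, a subunit of the mitochondrial pyruvate carrier, had 63.8 in state 3, 78.0 in state 2, 118 in state 1 and 112 in the total population (log2 ratio of state 3 against state 1 -0.88). Pdhx, which binds the complex together, had 364 in state 3, 386 in state 2, 500.1 in state 1 and 449.8 in the total population (-0.46), and Pdp2, a phosphatase that reverses the kinases, had 493 in state 3, 598 in state 2, 679.7 in state 1 and 643 in the total population (-0.46). Pdp1, the other phosphatase, had 58.9 in state 3, 58.5 in state 2, 38.8 in state 1 and 50.7 in the total population and was not called (0.59, posterior 0.633). Of 8 further pentose phosphate and NADPH genes, 1 rose and 3 fell (median -0.40). The log2 ratio of the phosphoribosyl pyrophosphate synthetase Prps2 was 0.65, that of its relative Prps1 -0.36, the endoplasmic reticulum hexose 6-phosphate dehydrogenase H6pd -0.76 and glutathione reductase Gsr -0.33.

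Of 19 further TCA and glutamate genes, 5 rose (26.3%) and 8 fell (42.1%), with a median of -0.15. Me1, the cytosolic malic enzyme, had 609 in state 3, 375 in state 2, 244 in state 1 and 274 in the total population (1.31), and Glud1, glutamate dehydrogenase, had 9983 in state 3, 8675 in state 2, 6408 in state 1 and 6645 in the total population (0.64), both higher in state 3. Ogdhl, a relative of Ogdh, had 994 in state 3, 1354 in state 2, 1757 in state 1 and 1555 in the total population (-0.82), and Got1, the cytosolic aspartate aminotransferase, had 1842 in state 3, 2072 in state 2, 2804 in state 1 and 2546 in the total population (-0.61), both lower. Rises and falls occurred together in this further list.

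Regulators of these pathways and targets of the hypoxia response were listed because many glycolytic genes are targets of HIF and Myc. Besides genes of the hypoxia response, the 13 regulators hold Myc, Mycn, Lin28a, Lin28b, Ppargc1b, Txnip and Mlxip. Of these 13, 3 rose and 3 fell, 23.1% each way and near the background of abundant genes (median -0.17). Mycn was among the 3 that fell (-0.37). Hif1a, which encodes HIF-1alpha, had 2489.9 in state 3, 2284 in state 2, 1848 in state 1 and 2092 in the total population and was called higher in state 3 (0.43) and in state 2 (0.31) against state 1. Epas1, which encodes HIF-2alpha, had 846 in state 3, 1070.1 in state 2, 1797 in state 1 and 1699 in the total population (-1.09), and Arnt, the shared HIF partner, was lower too (-0.46). Egln1, the oxygen-sensing prolyl hydroxylase that marks HIF for degradation, had 649.7 in state 3, 437 in state 2, 349 in state 1 and 391 in the total population (0.89), and Lin28b, an RNA-binding protein that blocks let-7 maturation, was higher as well (0.59). Of 14 HIF target genes outside these pathways 7 rose (50%) and 1 fell (7.14%), with a median of 0.63. Among abundant genes these shares were 22.0% and 20.3%. Bhlhe40, a transcriptional repressor, had 1241 in state 3, 539 in state 2, 304 in state 1 and 447 in the total population (2.03), P4ha2, a collagen prolyl hydroxylase, had 227 in state 3, 133 in state 2, 77.7 in state 1 and 85.6 in the total population (1.54), and Ddit4, an inhibitor of mTORC1, had 828 in state 3, 630.4 in state 2, 319 in state 1 and 374 in the total population (1.37). Adm, the vasodilator peptide adrenomedullin, rose at very low values, with 15.9 in state 3, 4.94 in state 2, 0.970 in state 1 and 4.45 in the total population. The state 1 value is that of about 3 reads, so no fold is given. The single fall was in Kdm3a, a histone demethylase, with 1071 in state 3, 1449 in state 2, 2567 in state 1 and 2204 in the total population.

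**Figure D4:**
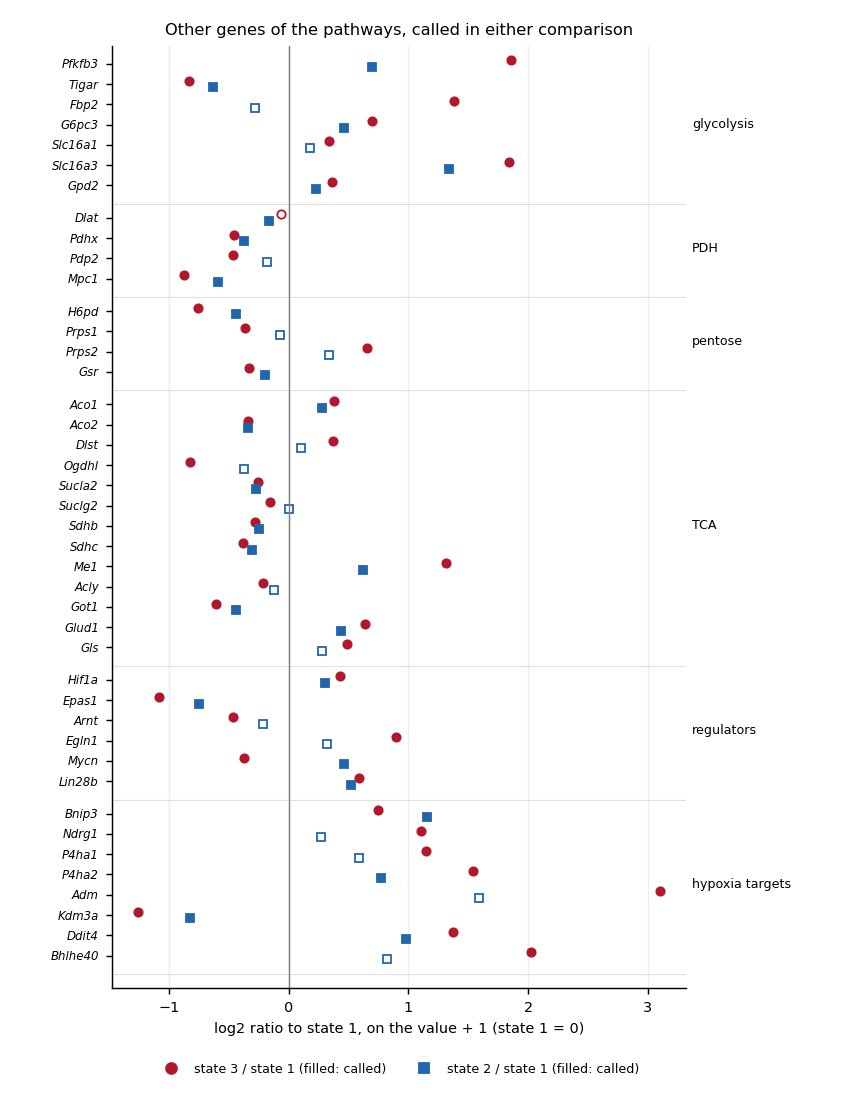
Log2 ratio (1 added to each value) of state 3 over state 1 and of state 2 over state 1 for the further genes called in either comparison. Further genes called in neither are not drawn. Filled symbols were called in the comparison they stand for and open ones were not. In state 3 over state 1, Pfkfb3 at 1.86 and Slc16a3 at 1.84 lead the glycolysis list. The hypoxia list of 14 measured genes has 7 rises (50%) and 1 fall (7.14%), against 22.0% and 20.3% of abundant genes.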

How the data were processed

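The deposited RNA-seq table holds 29692 genes. Per the submitters' processing notes, the tools were STAR 2.4.1d and RSEM 1.2.30 and the genome builds are listed as mm10 and GRCm38. The libraries were rRNA-depleted, strand-marked and read as paired ends, per the labels' protocols. The authors deposited a normalized signal, 1 value per gene and group, and a score per gene for each of 15 EBSeq patterns of equal and unequal groups, per the file headers. The scaling and merging of the 3 libraries of a group are not given in these sources. The patterns are not spelled out. They were read with the groups in the table's order (state 3 first, then states 2 and 1, then the total population), under which values matched the patterns in 94.4% of 1453 genes. The next best of the 24 orders, with state 1 and the total population exchanged, gave 90.8%.

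Scores of every pattern that separates 2 groups were added up to give the posterior that they differ, called at 0.95 over the whole table, with the direction from the values. Log2 ratios had a pseudocount of 1. The read depth of a group was taken from the smallest steps in its column. Motifs were counted in RefSeq promoter windows of GRCm38.p6. Every one of the 45 genes is named, and from each further list up to 4 called genes with the largest log2 ratio of state 3 against state 1. Kdm3a, Hif1a, Myc, Mycn, Pdp1, Pfkfb1, Pfkfb2 and Pfkfb4, and the markers Krt8, Krt18, Col1a1 and Tfap2c, were named after their values were seen. The members and lists were chosen with earlier results of these data known. Labels do not say whether libraries came from separate cultures. The small RNA table was not used here. Scripts ran in Python 3.11.15 with pandas 2.3.3 and numpy 2.4.6, and were tested on simulated data.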

Additional observations from a re-analysis of the deposited data

How the results depend on the processing

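Alternatives were a posterior limit of 0.90 or 0.99, pseudocounts of 0.5 and 5, 3 rescalings of the columns, a mean of at least 50, both Aldoa entries, and state 1 and the total population exchanged in the pattern order. None of the 43 called log2 ratios changed direction in 215 recomputed values, and 3 moved, those of Pgam1 in state 3 and of Idh3b and Ogdh in state 2, each against state 1. Most of these values could not have changed direction. A pseudocount cannot reverse a ratio, and rescaling to a total shifted ratios by about 0.07 at most, below the smallest called ratio of 0.17. Only the quantile rescaling could have reversed a direction. At 0.99 the genes higher in state 3 against state 2 numbered 1 rather than 2, and at 0.90 those higher in state 1 against the total population numbered 1 rather than 0. The genes lower in state 3 against state 1 numbered 15 at 0.99, and 16 with the exchanged order or a mean of at least 50, rather than 17. Those lower in state 2 against state 1 numbered 15 at 0.90, 12 at 0.99 and 11 with the exchanged order, rather than 13. With the columns rescaled to the same total, the median log2 ratio of the 45 genes was -0.0705 in state 3 and -0.0487 in state 2, each against state 1, and -0.0572 between states 3 and 2. Without the most abundant gene in that total the last 2 of these were -0.0716 and -0.0482. Abundant genes had medians of -0.00869, 0.0432 and -0.0521 after rescaling to the same total, in the same order of comparisons. With the exchanged order Pcx was not called in state 3 (posterior 0.843) or state 2 (0.515) against state 1, nor was Mdh1 in state 2 (0.906). No paired analysis was possible because the table holds 1 value per group, and for the same reason no library was left out in turn. The posterior is the authors' own, and Pdk4 in state 3 rests on about 63.3 reads, the fewest behind any called value of the 45 genes.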
